A study of Mus musculus with 20 samples.

Results

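The non-cleavable D361E form of p65/RelA was compared with the C-terminal fragment of the same protein in a murine B16 Bcr-Abl+ cell line. The comparison uses 6 of the 20 arrays of the series, 3 titled D361E and 3 titled with residues 362 to 549 alone, and it was defined by title, with no measured value entering the choice. B16 is a mouse melanoma line, and Bcr-Abl is the fusion tyrosine kinase known from chronic myeloid leukaemia. All cells grew in DMEM with fetal calf serum and received a plasmid. The D361E group received p65/RelA carrying the D361E change, and the C-fragment group received p65/RelA 362-549. The other groups, used here only as context, received a void plasmid (titled "Blanck", 3 arrays), wild-type p65/RelA (WT, 3 arrays), p65/RelA 1-361 (N-fragment, 3 arrays) or p65/RelA 1-361 together with 362-549 (N+C, 5 arrays). The labels give the strain of every sample as mouse C3H eOuJ and name no loss of the cells' own p65 in any group. They do not say whether transfection was transient or stable, whether clones were used, or whether replicates were separate cultures. The p-values therefore measure the spread between arrays, which may be technical. That spread was pooled within groups over all 20 arrays, N+C included. For some genes named below, N+C arrays 1 to 3 stood apart from N+C arrays 4 and 5, which widens the pooled spread.

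NF-kB is a family of dimeric transcription factors that inhibitor proteins of the IkB class hold in the cytoplasm until a signal from TNF, Toll-like or interleukin receptors leads the IKK complex to mark them for destruction. The p65 subunit binds DNA, its dimer partners and IkB through its N-terminal Rel homology domain, and it recruits the transcription machinery through C-terminal transactivation domains. Among the first genes NF-kB switches on are its own inhibitors, Nfkbia and Tnfaip3, which end the response. Caspase cleavage after the aspartate altered in D361E parts the DNA-binding portion from the transactivation portion. The comparison therefore sets a p65 that keeps both portions joined against a piece that holds the transactivation portion only.

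Each array measured 43020 non-control spots, and 52.9 to 55.8% of them were well above background on the 6 arrays. Levels are given as the log2 intensity minus the log2 75th percentile of the array, so 0 marks that percentile and a difference of 1 is a doubling. Across all genes tested, the C-fragment arrays correlated with one another at r = 0.991 to 0.992 and the D361E arrays at 0.985 to 0.988. Array 1 of D361E correlated with the C-fragment arrays at 0.988 to 0.989, no lower than with the other D361E arrays (0.985 and 0.988), and array 2 of D361E was the farthest from the C-fragment arrays (0.979 to 0.984). The 6 arrays lay on 5 slides, and 1 slide held both groups, namely D361E array 1 and C-fragment array 2. On that slide all 1859 genes called below differed in the same direction as in the full comparison. Both arrays are among the 6 that gave the calls, so this agreement was largely fixed by the selection. It does not test for a slide effect. The cells expressed pigment cell genes, since 14 of 14 melanosome genes were above background on all 3 arrays of each group, as were 9 of 10 melanocyte regulators. These genes check neither the Bcr-Abl label nor the strain label.

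Of 18738 genes tested, 1859 (9.92%) were called at an adjusted p under 0.05 (limma, Benjamini-Hochberg), 1032 (5.51%) higher and 827 (4.41%) lower with D361E than with the C-fragment. Of these, 298 differed at least 2-fold, 189 upward and 109 downward. The shares of 5.51% and 4.41% are the background for every list count below. The median difference over all genes was -0.02 on the log2 scale. When scaled on probes above background on every array, 1505 were called higher and 543 lower, which is 73.5% higher in place of 55.5%. The count fell to 1196 without D361E array 2, to 1119 without D361E array 3, and to 1127, 1011 and 1119 without C-fragment arrays 1, 2 and 3. It was 1681 without D361E array 1. Cells in these samples were not separated, so fewer cells of a type and less RNA per cell cannot be told apart in any of these values.

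**Figure D1:**
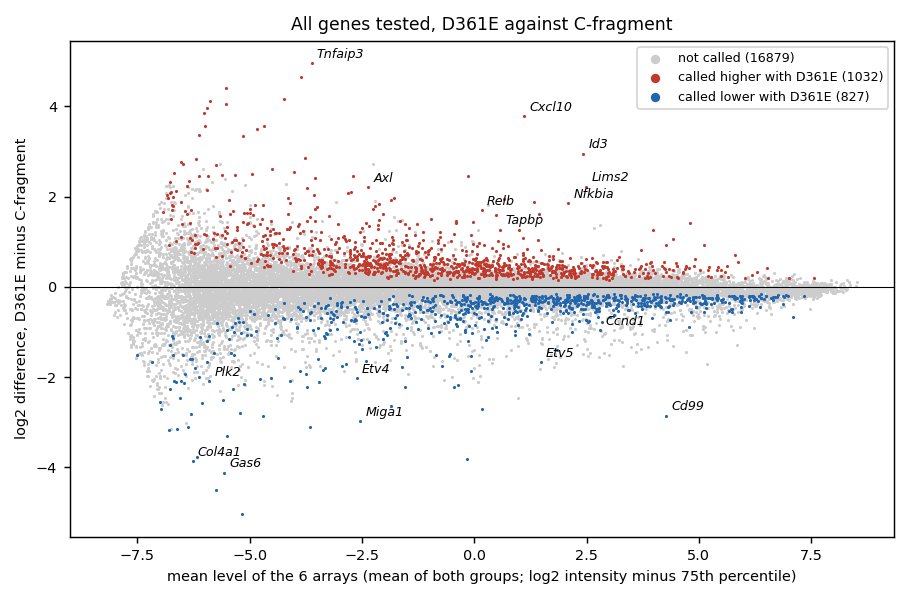
Each point is a gene; the x axis is the mean level of the 6 arrays (log2 intensity minus the array's 75th percentile) and the y axis the log2 difference, D361E minus C-fragment. The 1032 genes called higher are red, the 827 called lower blue and the others grey; among the genes named in the plot, Tnfaip3 and Cxcl10 lie highest and Gas6 and Col4a1 lowest.

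Rela itself did not separate the groups. Its level was 4.04, 4.24 and 4.15 on the D361E arrays and 4.19, 4.14 and 4.12 on the C-fragment arrays, a log2 difference of -0.01 ± 0.07 (standard error of the fit, as for every ± below; adjusted p = 0.947). The groups overlapped. The void arrays (4.10, 4.04 and 4.08) lay within the range of the D361E arrays and slightly below the C-fragment arrays. Where the Rela probe lies relative to the 2 constructs is not given in the sources used here, so this value checks neither label.

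Part of the genes that NF-kB is known to induce were called higher with D361E. Over 5 lists of NF-kB subunits, inhibitors, cytokines, inflammatory genes and survival genes, 18 of 50 measured members were called higher and 0 lower (limma), against 5.51% and 4.41% of all genes tested. At an unadjusted p under 0.05 the counts were 20 and 1, and of 26 further members 24 were too dim to be tested and 2 had no probe under their symbol. The median over the 50 was 0.17 on the log2 scale, against -0.02 for all genes. The count of 18 became 10 without D361E array 2, when 1 member was called lower, and 11 without C-fragment array 2. It was 10 without scaling, and with slide as a fixed block 14 were called higher and 3 lower.

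Promoter stretches of members called higher are shown because they hold matches to the kappaB decamer, the DNA motif that NF-kB dimers bind. The sequences come from RefSeq promoter windows (GRCm38.p6) that run from 250 bases before to 50 bases after a gene's start; each is printed on the gene's own strand, ending no later than the last base before the start, with the matched bases in capitals. Matches on both strands were counted, and adjoining or overlapping matches form 1 run of capitals.
Tnfaip3: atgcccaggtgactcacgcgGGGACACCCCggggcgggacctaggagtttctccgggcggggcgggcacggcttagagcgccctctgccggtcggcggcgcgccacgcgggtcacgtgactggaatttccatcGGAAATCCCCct
Cxcl10: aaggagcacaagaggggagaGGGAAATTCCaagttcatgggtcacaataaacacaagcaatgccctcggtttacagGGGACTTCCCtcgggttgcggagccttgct
Nfkbia: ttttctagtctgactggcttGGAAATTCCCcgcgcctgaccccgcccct
Cxcl1: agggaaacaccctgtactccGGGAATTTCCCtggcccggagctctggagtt
Nfkb2: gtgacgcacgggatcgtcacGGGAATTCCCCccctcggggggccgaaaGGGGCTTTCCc
Nfkbie: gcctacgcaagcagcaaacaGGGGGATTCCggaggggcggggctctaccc
Csf1: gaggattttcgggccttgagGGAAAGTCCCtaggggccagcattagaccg
In the same build these stretches lie at chr10:19015411-19015555 (minus strand, Tnfaip3), chr5:92348963-92349068 (minus strand, Cxcl10), chr12:55492648-55492696 (minus strand, Nfkbia), chr5:90891154-90891204 (plus strand, Cxcl1), chr19:46304678-46304736 (plus strand, Nfkb2), chr17:45555574-45555623 (plus strand, Nfkbie) and chr3:107760594-107760643 (minus strand, Csf1). All lie upstream of an annotated transcription start. Of the 18 members called higher, 15 had a window in the table and 11 of those (73.3%) held the decamer. Among all 36 measured list members with a window, called or not, the decamer was present in 17 (47.2%). It was present in 1480 of 32851 windows of this length (4.51%), in 671 of 11034 tested genes with a window (6.08%), in 65 of 718 genes called higher (9.05%) and in 34 of 562 called lower (6.05%). Among genes called with at least a 2-fold difference the share was 13.1% of 130 higher genes and 13.0% of 69 lower ones. The members of these lists were chosen as known targets, and a match describes the letters only.

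Among the subunits, 3 of 4 measured genes were called higher. Relb, the partner of p52 in the non-canonical pathway, stood at 0.86, 1.30 and 0.89 with D361E and at -0.76, -0.69 and -0.60 with the C-fragment. All D361E arrays lay above all C-fragment arrays, and the difference was 1.70 ± 0.11 (3.26-fold, adjusted p = 1.17e-07). Nfkb2, the precursor of p52, read 0.83, 1.63 and 1.18 against 0.35, 0.30 and 0.27 (0.90 ± 0.19, adjusted p = 0.00528). Its highest value was on D361E array 2, and the groups did not overlap. For Nfkb1, the precursor of p50, the brightest probe differed by 0.60 ± 0.16 (adjusted p = 0.0297), but a second probe gave -0.57, and the call was lost when D361E array 2 or 3 or C-fragment array 2 or 3 was left out (adjusted p up to 0.123).

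The inhibitors of NF-kB held one of the largest differences. Tnfaip3, which encodes the ubiquitin-editing enzyme A20, read -1.42, -0.99 and -1.02 with D361E and -6.07, -6.18 and -6.05 with the C-fragment, where no array was well above background. It was at least 23.3-fold higher with D361E (adjusted p = 5.32e-12), a bound set against the dimmest signal still above background on the C-fragment arrays or the probe's own signal, whichever was higher. The void arrays read -4.55, -4.49 and -4.52 and were above background. D361E stood 3.38 above them (adjusted p = 3.58e-10), and the C-fragment was called below them (adjusted p = 4.97e-06), by an amount its undetected signal does not give; both comparisons share the void arrays.

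Nfkbia, which encodes the classical inhibitor IkB alpha, stood at 2.93, 3.17 and 2.96 against 1.23, 1.17 and 1.09, a difference of 1.86 ± 0.11 (3.62-fold, adjusted p = 4.17e-08). Every D361E array was above every C-fragment array. Against void, Nfkbia rose by 1.52 with D361E (adjusted p = 1.72e-07), while the C-fragment value, -0.33, was not called (adjusted p = 0.0585). Bcl3, a nuclear IkB protein that acts with p50 and p52, read -3.04, -2.40 and -2.44 against -4.34, -4.20 and -4.65 (1.77 ± 0.16, adjusted p = 4.57e-06). Here the void arrays (-2.83, -2.95 and -3.09) sat near the D361E arrays, and the called difference from void was that of the C-fragment (-1.44, adjusted p = 3e-05). Nfkbie, which encodes IkB epsilon, differed by 0.97 ± 0.22 (adjusted p = 0.0116), and the call was lost without D361E array 2 (adjusted p = 0.0535). The remaining 12 of 16 measured inhibitors were not called; they ranged from -0.80 for Nfkbid to 0.39 for Tnip1 (adjusted p = 0.057), with Cyld, the deubiquitinase, at 0.13 ± 0.10.

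Of the chemokines and cytokines, 10 of 23 were measured and 4 were called, all higher. Cxcl10, which attracts T cells through Cxcr3, had the smallest adjusted p of the genes named here. Its level was 3.01, 2.96 and 3.05 with D361E and -0.75, -0.77 and -0.83 with the C-fragment, a 13.8-fold difference (log2 3.79 ± 0.08, adjusted p = 1e-13). The void arrays lay between the groups at 0.74, 0.51 and 0.37, 2.47 below D361E and 1.32 above the C-fragment, both called (adjusted p = 2.35e-11 and 7.04e-08). The gene of its receptor, looked up after the values of Cxcl10 were seen, went the other way, since Cxcr3 differed by -0.93 ± 0.13 (adjusted p = 0.000216). Cxcl1, a neutrophil chemokine, read -4.88, -4.83 and -4.62 with D361E and was not well above background on any C-fragment array, so it was at least 1.88-fold higher (adjusted p = 0.00115). Csf1, the macrophage growth factor, read -0.44, -0.03 and -0.17 against -1.33, -1.27 and -1.35 (1.10 ± 0.24, adjusted p = 0.00887), and its void level (-1.24 to -1.28) was close to that with the C-fragment. The Csf1 call was lost with slide as a fixed block (adjusted p = 0.0511). Ccl2, a monocyte chemokine, was called (adjusted p = 0.00776) but was not well above background on any of the 6 arrays, so no fold is given. Ccl5 (0.46 ± 0.17, adjusted p = 0.107), Tslp, Il15, Csf3, Cx3cl1 and Lif were not called, and the other 13 members, Il6, Tnf and Il1b among them, were too dim to be tested.

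**Figure D2:**
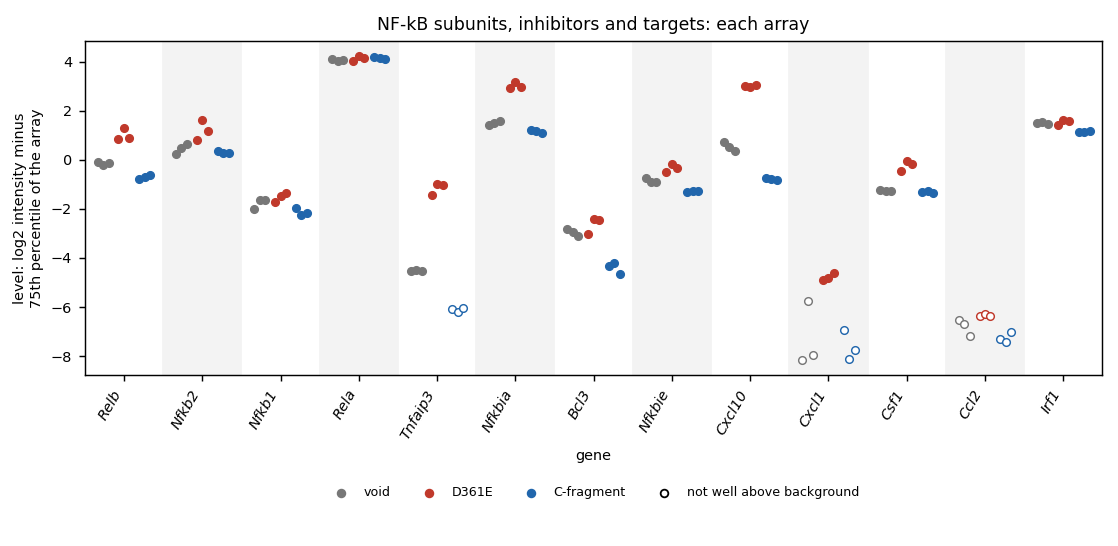
Levels of NF-kB subunits, inhibitors and targets on each array (y axis, log2 intensity minus the array's 75th percentile) for void (grey), D361E (red) and C-fragment (blue); open circles were not well above background. Tnfaip3, Cxcl10, Nfkbia and Relb show D361E arrays above both other groups, while for Rela the range of the D361E arrays spans both other groups.

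The inflammatory, survival and receptor lists showed smaller differences. Their counts stand against 5.51% of all genes tested called higher and 4.41% lower. Only Irf1 among 8 measured adhesion, enzyme and acute phase genes was called (0.41 ± 0.10, adjusted p = 0.0158), and this call was lost without D361E array 2 or 3 or C-fragment array 1 or 2 (adjusted p up to 0.0683). Sod2, the mitochondrial superoxide dismutase, was -0.27 ± 0.09 (adjusted p = 0.061), and Icam1, Vcam1 and Ptgs2 were too dim to be tested. Of 12 survival genes 6 were called higher: Birc3 and Birc2, which encode inhibitors of apoptosis, the anti-apoptotic stress gene Gadd45b (0.50 ± 0.11, adjusted p = 0.0077), and Traf2, Ier3 and Traf3, the last 3 named after their values were seen. This count dropped to 1 without D361E array 2 or C-fragment array 2, to 2 without C-fragment array 3 and to 3 without D361E array 3 or C-fragment array 1. It was 0 without scaling and 3 with normexp background correction and quantile normalization. The Gadd45b call was lost under both settings and in a fit of the 6 arrays alone (adjusted p up to 0.0634). Birc2 rose by 0.45 ± 0.12 (adjusted p = 0.0235), and Birc3 was well above background on 1 D361E array only. The calls of both held only when D361E array 1 was the one left out (adjusted p 0.0551 to 0.107 otherwise). Among 24 IKK, TNF receptor and Toll genes, the sensor Tlr2 (1.43 ± 0.36, adjusted p = 0.0198) and the kinase adaptor Tab1 (0.47 ± 0.14, adjusted p = 0.0425) were called higher, and Tnfrsf1a, the main TNF receptor, lower (-0.41 ± 0.09, adjusted p = 0.00508). A second Tnfrsf1a probe gave -0.15 ± 0.14, and the Tnfrsf1a call was lost without scaling (adjusted p = 0.0582). The Tab1 call was lost whichever of the 6 arrays was left out (adjusted p 0.0506 to 0.171), and that of Tlr2 was lost without D361E array 2 or 3 or C-fragment array 1 or 3 (up to 0.0735). Tlr2 was not well above background on C-fragment arrays 1 and 3, and its smallest difference under any alternative setting was 0.34.

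In 9 of the 15 largest rises, those of Tnfaip3 and Cxcl1 included, no C-fragment array was well above background. Casp4, the inflammatory caspase that senses bacterial lipopolysaccharide in the cytosol, read -1.73, -1.27 and -1.59 with D361E and -7.25, -6.06 and -5.23 with the C-fragment, where 1 array was above background (4.65 ± 0.97, adjusted p = 0.00581). The void arrays lay between, at -3.97, -4.53 and -4.37, and neither group was called against them (adjusted p = 0.0725 and 0.225). The standard error of 0.97 pools all groups, with SDs of 0.24 for D361E, 0.29 for void, 1.02 for the C-fragment and 2.18 for N+C. Fstl1, a secreted glycoprotein, differed at least 11.6-fold, with D361E higher (adjusted p = 0.00273). Its void arrays read -2.56, -2.73 and -2.87, near the D361E arrays at -2.35, -1.98 and -2.11, and the called difference from void was that of the C-fragment, lower and undetected (adjusted p = 0.00623). Rgs16, a brake on G protein signalling, followed the same order, with -3.30, -2.86 and -3.13 against -6.81, -7.94 and -5.02, of which 1 was above background (3.49 ± 0.55, adjusted p = 0.000765), and void at -3.21, -3.06 and -3.10. Mamdc2 did so too, at least 3.03-fold higher with D361E (adjusted p = 0.00802) with void at -3.86 to -3.38.

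For Capn6, Blnk, Hoxb13, Atoh8 and Cck the called difference from void was that of D361E. Capn6, a calpain without protease activity, read -4.14, -3.67 and -4.12 with D361E and was not well above background on any C-fragment or void array, at least 3.28-fold higher (adjusted p = 1.21e-09). The bound was 2.81-fold for Blnk, the B cell linker adaptor (adjusted p = 4.1e-06), and 4.62-fold for the homeobox gene Hoxb13 (adjusted p = 5.31e-05), both again undetected with void. Blnk was well above background on the 3 D361E arrays and on no other array of the series. It thus passed the filter on dim probes only through the group where it was high, and its p-values do not allow for that. Atoh8, a helix-loop-helix factor, was detected in both groups, at -1.98, -2.69 and -2.36 against -5.14, -5.34 and -5.09 (2.85 ± 0.46, adjusted p = 0.000888), with void at -5.45 to -4.78. Cck, the cholecystokinin precursor, rose by 3.56 ± 0.41 (adjusted p = 4.34e-05), and it was above background on 1 C-fragment array. Stum was called against void with both constructs (adjusted p = 0.00474 and 0.0176), and was at least 5.19-fold higher with D361E than with the C-fragment by its brightest probe (adjusted p = 4.82e-05), where its second probe gave a difference of 0.93. Mal, a membrane proteolipid, varied most, with -5.10, -5.63 and -2.64 on the D361E arrays, and was at least 2.35-fold higher (adjusted p = 0.0028). Against void, Mal was called with the C-fragment only (adjusted p = 0.0367, against 0.222 with D361E).

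**Figure D3:**
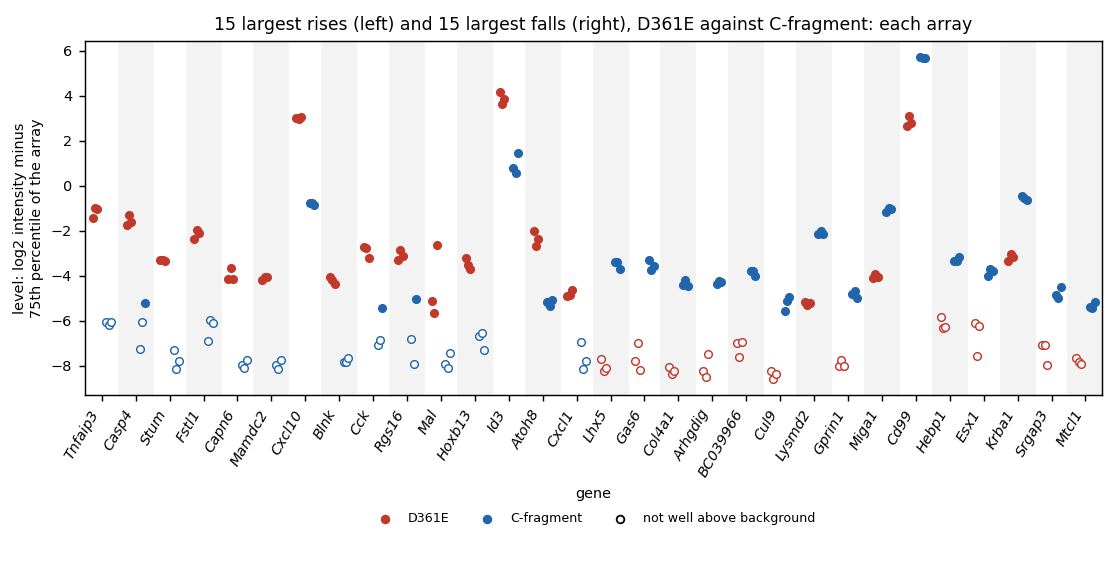
Levels on each D361E (red) and C-fragment (blue) array for the 15 largest rises and the 15 largest falls (y axis, log2 intensity minus the array's 75th percentile); open circles were not well above background. In 9 of the 15 rises all 3 C-fragment circles are open, and in 11 of the 15 falls all 3 D361E circles are; Cd99 is the brightest fall, near 5.7 with the C-fragment.

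The largest falls held genes that were lower with D361E than with void and genes that were higher with the C-fragment than with void. Col4a1, a chain of basement membrane collagen, belonged to the first kind, with no D361E array well above background, -4.39, -4.17 and -4.45 with the C-fragment and -2.97, -2.73 and -2.71 with void; it was at least 3.29-fold lower with D361E (adjusted p = 1.89e-11). Lhx5, a LIM homeobox factor, was at least 5.89-fold lower (adjusted p = 0.00267) with void (-3.60 to -3.76) near the C-fragment arrays (-3.38, -3.39 and -3.71). Miga1, which promotes mitochondrial fusion, was detected on every array, at -4.11, -3.93 and -4.05 against -1.15, -0.99 and -1.01 (-2.98 ± 0.59, adjusted p = 0.0042), with void at -0.92 to -0.65. Its standard error pools SDs of 0.09 for D361E, 0.09 for the C-fragment and 1.41 for N+C. For this gene N+C arrays 1 to 3 read -3.21, -3.29 and -3.46, and N+C arrays 4 and 5 read -0.80 and -0.72. Krba1 was also lower with D361E than with the C-fragment or void (-2.63 ± 0.10 against the C-fragment, adjusted p = 1.54e-10).

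Cd99, a surface glycoprotein, was of the second kind. It read 2.65, 3.11 and 2.78 with D361E, 5.74, 5.70 and 5.68 with the C-fragment and 2.57, 2.74 and 2.83 with void, a 7.27-fold difference between the constructs (-2.86 ± 0.40, adjusted p = 0.000291). D361E was not called against void (0.13, adjusted p = 0.905), and the C-fragment was (2.99, adjusted p = 0.000162). Gas6, the secreted ligand of the receptor Axl, was detected on all 3 C-fragment arrays (-3.27, -3.73 and -3.54) and on no D361E array, at least 5.8-fold lower with D361E (adjusted p = 0.000542), and the C-fragment stood 2.85 above void (adjusted p = 0.00689). Outside the C-fragment, Gas6 was well above background on 1 void array only. It thus passed the filter on dim probes only through the C-fragment arrays, and its p-values do not allow for that. Lysmd2 read -5.15, -5.31 and -5.21 against -2.16, -2.02 and -2.13 (-3.12 ± 0.26, adjusted p = 1.57e-06) with void between at -3.88 to -4.15. Arhgdig was at least 3.4-fold lower (adjusted p = 6.73e-07). The other 7 of the 15 largest falls were BC039966, Cul9, Gprin1, Hebp1, Esx1, Srgap3 and Mtcl1, with bounds from 1.66-fold (Mtcl1) to 6.68-fold (Hebp1). A second probe gave smaller differences for Cul9 (-0.41 ± 1.08) and Srgap3 (-0.77 ± 0.44). The Cul9 call was lost when the probes of a gene were averaged (adjusted p = 0.0697). Calls for BC039966 were lost without D361E array 2 or C-fragment array 1 or 2, and for Hebp1 without D361E array 2 or 3 or C-fragment array 3 (adjusted p up to 0.0652). The SD of Hebp1 was 0.29 for D361E, 0.10 for the C-fragment and 1.60 for N+C. BC039966, like Gas6, passed the filter only through the C-fragment arrays.

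Id genes encode inhibitors of helix-loop-helix factors and are classical targets of BMP signalling. In the list of ID genes and inhibitory SMADs 3 of 6 measured genes were called higher, against 5.51% of all genes tested. The list median was 1.58. Id3 read 4.19, 3.65 and 3.85 with D361E and 0.79, 0.60 and 1.46 with the C-fragment, a 7.72-fold difference (2.95 ± 0.45, adjusted p = 0.000539). No array of either group crossed over, and void (1.26, 1.81 and 1.90) lay nearer to the C-fragment. Id2 rose by 1.25 ± 0.29 (adjusted p = 0.0115) and Id1 by 1.95 ± 0.57 (adjusted p = 0.041). Id1 spread widely, 2.36, 0.93 and 1.65 against -0.49, -0.49 and 0.07, and kept its call only when D361E array 2 was the one left out (adjusted p 0.0701 to 0.128 otherwise). The Id2 call was lost without C-fragment array 1 (0.0528), and then 1 list member was called. Smad6, an inhibitory SMAD, stood at 1.91 but was not called (adjusted p = 0.101).

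Matricellular and mesenchymal genes rose in part: 4 of 17 measured members were called, all higher, against 5.51% of all genes tested, with a median of 0.08. Ccn2, a matricellular growth factor binding protein also known as CTGF, read 1.40, 1.23 and 1.22 against -0.36, -0.32 and -0.28 (1.60 ± 0.19, adjusted p = 4.61e-05). Both groups lay above void (-1.18 to -1.04), by 2.37 with D361E and by 0.77 with the C-fragment (adjusted p = 4.1e-07 and 0.0123). Its relative Ccn1, named after its value was seen, rose by 0.96 ± 0.12 (adjusted p = 6.47e-05). Snai2, the transcription factor Slug, stood at 0.46, 0.12 and 0.30 against -1.19, -1.06 and -1.11 (1.42 ± 0.19, adjusted p = 0.000148), with void in between at -0.59 to -0.80. Tgfbi rose by 1.60 ± 0.42 (adjusted p = 0.0256), a call lost without D361E array 1 or 3 or C-fragment array 1 or 2 (up to 0.111).

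Of 7 measured genes of the invasive melanoma state, 3 were called higher, against 5.51% of all genes tested. Axl, the receptor tyrosine kinase that Gas6 activates, read -1.31, -1.20 and -1.27 with D361E and -3.42, -3.53 and -3.48 with the C-fragment, a 4.64-fold difference (2.21 ± 0.31, adjusted p = 0.000291). The void arrays (-3.52, -3.03 and -3.27) overlapped the C-fragment arrays. Receptor and ligand thus differed in opposite directions, Axl higher and Gas6 lower with D361E. Sox9, a transcription factor of neural crest derivatives, rose by 0.72 ± 0.11 (adjusted p = 0.000567), and Ngfr, the low-affinity neurotrophin receptor, was called higher (adjusted p = 0.00115), with 2 of 3 D361E arrays and no C-fragment array well above background, so no fold is given; the call was lost with normexp background correction and quantile normalization (adjusted p = 0.213).

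In the adhesion list 2 of 18 measured genes were called higher, against 5.51% of all genes tested. Lims2, an adaptor of the integrin-linked kinase complex, differed most. It read 3.95, 3.31 and 3.52 against 1.33, 1.19 and 1.60 (4.66-fold, 2.22 ± 0.25, adjusted p = 3.38e-05). Both constructs raised it over void (-1.86, -1.30 and -1.52), by 5.16 with D361E and by 2.94 with the C-fragment (adjusted p = 1.52e-09 and 2.22e-06). Parva, another member of that complex, was called at 0.22 ± 0.05 by its brightest probe (adjusted p = 0.0141), but its probes disagreed in sign (-0.09 to 0.22), and the call was lost without D361E array 2 or C-fragment array 1 or 2. Among 17 collagens, laminins and collagen-modifying enzymes, Plod2, a collagen lysyl hydroxylase, rose by 0.60 ± 0.10 (adjusted p = 0.00111), Col5a1 rose by 0.42 ± 0.11 (adjusted p = 0.0203), and Col4a1, described above, was the 1 gene lower. The Col5a1 call held only when D361E array 1 was the one left out (adjusted p 0.0537 to 0.0795 otherwise).

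Of 11 measured output genes of the ERK pathway 3 were called, all lower with D361E, against 4.41% of all genes tested, with a list median of -0.34. Etv4, an ETS factor induced by ERK, read -3.56, -3.74 and -3.57 with D361E and -1.34, -1.64 and -1.84 with the C-fragment (4.06-fold, -2.02 ± 0.22, adjusted p = 3.04e-05). Etv5, its close relative, read 0.58, 0.68 and 0.66 against 2.49, 2.28 and 2.18 (-1.68 ± 0.29, adjusted p = 0.00139). The phosphatase Dusp6, which switches ERK off again, stood at 3.31, 3.25 and 3.29 against 3.89, 3.88 and 3.84 (-0.59 ± 0.06, adjusted p = 2.02e-05). For none of the 3 was D361E called against void (adjusted p = 0.208, 0.98 and 0.245), while the C-fragment stood above void by 2.48, 1.65 and 0.47 (adjusted p = 4.31e-06, 0.0013 and 0.000145).

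Cell cycle lists gave few calls, where 5.51% of all genes tested were called higher and 4.41% lower. Of 13 measured G1 genes Ccnd1 and Ccnd3 alone were called. Ccnd1, the cyclin that drives entry into the cycle, read 2.21, 2.38 and 2.37 with D361E against 3.31, 3.32 and 3.22 (1.95-fold lower, -0.96 ± 0.09, adjusted p = 4.21e-06). Here void (3.18, 3.42 and 3.43) overlapped the C-fragment arrays, and D361E stood 1.02 below it (adjusted p = 8.63e-07). Ccnd3 was called higher by 0.19 ± 0.06 (adjusted p = 0.0429) and the S-phase cyclin gene Ccne1 lower by -0.36 ± 0.10 (adjusted p = 0.035); both calls were lost whichever array was left out (adjusted p 0.0526 to 0.135). Of 28 replication genes Ccne1 alone was called, and of 25 mitosis genes 0 were called by limma, with 1 higher and 1 lower at an unadjusted p under 0.05; in each list 1 gene was called higher without D361E array 1. The proto-oncogene Myc fell by 0.91 on the log2 scale (± 0.21, adjusted p = 0.0111), a call lost with slide as a fixed block (adjusted p = 0.0691), while the early genes Junb (1.41 ± 0.27, adjusted p = 0.0029) and Klf6 (0.47 ± 0.06, adjusted p = 5.3e-05) rose. These 3 were the called members among 17 measured early genes. Junb was not well above background on C-fragment arrays 2 and 3, and its smallest difference under any alternative setting was 0.33.

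**Figure D4:**
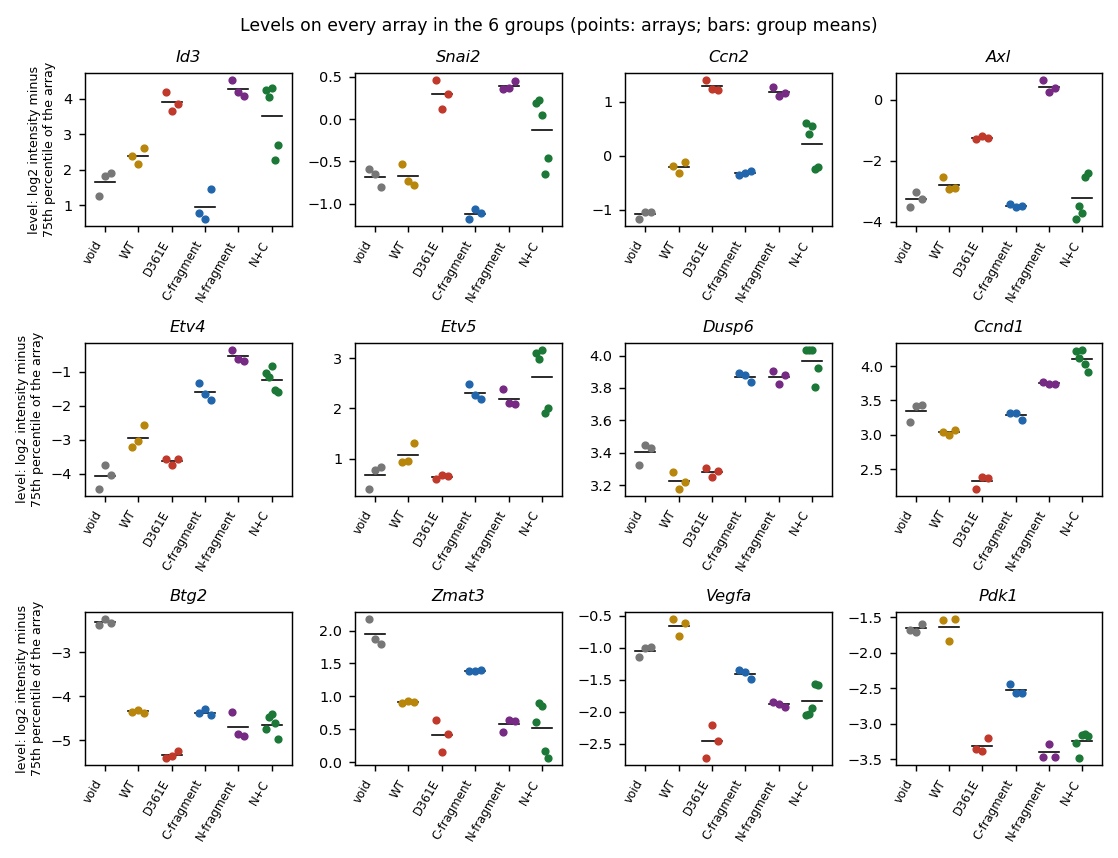
Levels of 12 genes on every array of the 6 groups (y axes, log2 intensity minus the array's 75th percentile, each panel on its own scale; bars are group means). D361E lies above the C-fragment for Id3, Snai2, Ccn2 and Axl and below it for the other 8; the N-fragment arrays lie near D361E for Id3, Snai2 and Ccn2 and near the C-fragment for Etv5 and Dusp6.

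The plot of the 6 groups places both constructs beside the N-fragment, for which values are given as a description. Id3 averaged 4.26 ± 0.23 (SD, n = 3) with the N-fragment, 3.90 ± 0.28 with D361E and 0.95 ± 0.45 with the C-fragment. Ccn2 averaged 1.18 ± 0.08, 1.28 ± 0.10 and -0.32 ± 0.04 in the same order. Dusp6, in contrast, averaged 3.87 ± 0.04 with the N-fragment and 3.87 ± 0.03 with the C-fragment against 3.28 ± 0.03 with D361E. Axl was higher still with the N-fragment (0.42 ± 0.20) than with D361E (-1.26 ± 0.05).

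Of 21 measured p53 targets that serve growth arrest, repair and feedback, 11 were called lower with D361E and 0 higher by limma, against 4.41% and 5.51% of all genes tested, with a median of -0.46, and 10 were called lower under each omission of an array. At an unadjusted p under 0.05 the counts were 13 and 0. Plk2, a stress-induced kinase, was at least 2.29-fold lower with D361E, not well above background on any of its arrays, against -4.94, -4.87 and -4.78 with the C-fragment (adjusted p = 4.27e-05). Zmat3, an RNA-binding p53 target, read 0.64, 0.16 and 0.43 against 1.39, 1.38 and 1.40 (-0.98 ± 0.19, adjusted p = 0.00374), and the antiproliferative gene Btg2 read -5.41, -5.36 and -5.25 against -4.38, -4.30 and -4.43 (-0.97 ± 0.14, adjusted p = 0.000348). No array of either group crossed over for these genes. Both constructs lay below void for Btg2 (-2.38 to -2.25), by -3.02 with D361E and by -2.05 with the C-fragment (adjusted p = 9.15e-10 and 1.64e-07). Cdkn1a, the cell cycle inhibitor p21, and Trp53inp1 were picked from the list after their values were seen and stood at -0.83 ± 0.17 and -0.71 ± 0.08 (adjusted p = 0.00499 and 4.34e-05). The list also counts Ccnd1, which acts opposite to p21 and which is given above. Mdm2, the p53 ubiquitin ligase, was not called (-0.14 ± 0.05, adjusted p = 0.0857), nor was any of 8 measured pro-apoptotic p53 targets (limma; 0 also at an unadjusted p under 0.05), whose median was -0.15.

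Genes of the hypoxia response and of glycolysis were called lower in part, 4 of 15 and 3 of 21 measured genes against 4.41% of all genes tested, with medians of -0.14 and -0.19. Vegfa, the angiogenic growth factor, read -2.73, -2.21 and -2.46 against -1.35, -1.38 and -1.49 (2.09-fold lower, -1.06 ± 0.14, adjusted p = 0.000185). Pdk1, which keeps pyruvate out of the mitochondrion, read -3.36, -3.38 and -3.20 against -2.43, -2.57 and -2.57 (-0.79 ± 0.10, adjusted p = 0.000115), and void was higher again (-1.59 to -1.71). Car9, a carbonic anhydrase, fell by 0.70 on the log2 scale (± 0.07, adjusted p = 1.32e-05), but its void level (-0.58 to -0.66) overlapped that with D361E. The glycolytic genes called lower were Eno2 (-0.92 ± 0.12, adjusted p = 0.00013), Pfkp (-0.62 ± 0.14, adjusted p = 0.0109) and Pfkfb3 (-0.38 ± 0.05, adjusted p = 8.26e-05). With slide as a fixed block, 9 of the 21 glycolysis genes were called lower.

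Interferon-stimulated genes went both ways, 2 of 28 measured higher and 4 lower, against 5.51% and 4.41% of all genes tested, with a median of -0.33. Oasl1, an antiviral OAS relative, rose by 1.23 ± 0.25 (adjusted p = 0.00509), and Gbp2, a guanylate-binding protein, by 0.40 ± 0.11 (adjusted p = 0.0303). Xaf1 read -3.62, -3.06 and -3.35 against -2.25, -2.17 and -2.28 (-1.11 ± 0.14, adjusted p = 7.72e-05), Rtp4 differed by -1.26 ± 0.32 (adjusted p = 0.0208) and Ifi27 by -0.70 ± 0.13 (adjusted p = 0.00334). The Gbp2 call was lost without D361E array 2 or 3 or C-fragment array 2 or 3 (adjusted p up to 0.146) and that of Rtp4 without D361E array 1 or 3 or C-fragment array 1 or 2 (up to 0.0775). Without C-fragment array 1 the list had 2 members called lower, and in a fit of the 6 arrays alone it had 1 higher and 9 lower. In antigen presentation by MHC class I, Tapbp was the 1 call among 13. It encodes tapasin, which loads peptides, and read 0.94, 1.46 and 1.23 against -0.06, -0.08 and -0.03 (2.41-fold, 1.27 ± 0.10, adjusted p = 6.66e-07).

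Among 19 measured chaperones and XBP1 targets of the endoplasmic reticulum 8 were called, all higher, against 5.51% of all genes tested. Of the 19, 18 had a positive difference, and the median was 0.28. In 16 of 19 all D361E arrays lay above all C-fragment arrays, as in 18.9% of all genes tested. Creld2 read 5.15, 5.32 and 5.19 against 4.53, 4.59 and 4.67 (1.54-fold, 0.62 ± 0.10, adjusted p = 0.000805), and the disulfide isomerase Pdia4 rose by 0.57 ± 0.11 (adjusted p = 0.00314). Manf, a secreted survival factor, was called at 0.45 ± 0.14 (adjusted p = 0.0492) and lost the call whichever array was left out (0.0624 to 0.174). The count was 5 without D361E array 2 or without a filter on dim probes, and 2 with unscaled values. By comparison 1 of 24 genes of the integrated stress response was called, Ddit4, an inhibitor of mTORC1 signalling, lower by -0.52 ± 0.09 (adjusted p = 0.00182), and 0 of 20 tRNA synthetase genes (limma; 2 higher and 2 lower at an unadjusted p under 0.05).

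Antioxidant targets of NRF2 split into 2 higher and 2 lower of 23 measured, against 5.51% and 4.41% of all genes tested. Nqo1, a quinone reductase, read -2.04, -1.87 and -1.84 against -2.91, -2.95 and -3.17 (1.09 ± 0.26, adjusted p = 0.0139), a call lost without D361E array 3 (0.0532) or C-fragment array 3 (0.0609). No void array was well above background for Nqo1, so both constructs stood above it. Srxn1, which repairs peroxiredoxins, rose by 0.54 ± 0.09 (adjusted p = 0.00174), and the epoxide hydrolase gene Ephx1 fell by 0.56 on the log2 scale (± 0.11, adjusted p = 0.00357). Gstm1, a glutathione transferase, was called lower (adjusted p = 0.0316) but in no fit that left out an array (0.0558 to 0.129).

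STAT5 targets, listed because Bcr-Abl activates STAT5, gave 4 of 8 measured genes called, all higher, against 5.51% of all genes tested, with a median of 0.21. The count was 1 without scaling and 2 with normexp background correction and quantile normalization. The kinase gene Pim3 read 1.51, 1.47 and 1.43 against 0.88, 0.68 and 0.60 (1.68-fold, 0.75 ± 0.13, adjusted p = 0.00144). The cytokine signalling inhibitors Socs1 (0.42 ± 0.11, adjusted p = 0.0174) and Socs2 (0.33 ± 0.08, adjusted p = 0.0187) were called, and both calls were lost without D361E array 2 (adjusted p = 0.0871 and 0.0947), leaving 2 of 8. The Socs1 call was also lost without C-fragment array 1 or 2, and that of Socs2 without D361E array 3 or C-fragment array 3. Among 17 BCL2 family and caspase genes 4 were called higher, against 5.51% of all genes tested. Casp4 was foremost, with Bok, a pro-apoptotic BCL2 relative, at 0.86 ± 0.13 (adjusted p = 0.000401) and the executioner caspase gene Casp6 at 0.37 ± 0.06 (adjusted p = 0.00151). The pore-forming gene Bak1 was called lower by -0.25 ± 0.06 (adjusted p = 0.0113), which was lost without D361E array 3 or C-fragment array 2 (up to 0.0608).

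Pigment cell genes differed little. Of 14 melanosome genes 2 were called higher and 2 lower, against 5.51% and 4.41% of all genes tested, with a median of -0.02. Gpr143, a melanosomal receptor, stood at 0.45 ± 0.12 (adjusted p = 0.0287), Rab38, which sorts melanosome cargo, at 0.41 ± 0.10 (adjusted p = 0.0153), and the transporter gene Slc45a2 at -0.48 ± 0.13 (adjusted p = 0.0223). The Rab38 and Slc45a2 calls were lost without D361E array 2 or 3 or C-fragment array 2 or 3, and those of Gpr143 and Gpnmb whichever array was left out (adjusted p up to 0.202). Of 10 lineage regulators, Tfap2a rose by 0.42 ± 0.07 (adjusted p = 0.00118) and Pax3 by 0.21 ± 0.06 (adjusted p = 0.0425), while Mitf, the master regulator, was not called (0.07, adjusted p = 0.616). The Pax3 call held only without D361E array 3 (adjusted p 0.0582 to 0.19 otherwise). The tubulin list held 1 large fall, the neuronal isotype Tubb2b, at -2.46, -2.002 and -2.33 against -0.63, -0.62 and -0.90 (2.92-fold lower, -1.54 ± 0.21, adjusted p = 0.000217); void was lower than both (-5.14, -5.29 and -5.96). Of 13 tubulin genes the other call was Tuba1a, higher by 0.38 ± 0.10 (adjusted p = 0.0211), which held only without D361E array 1.

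Markers of other cell types were detected in part. On at least 1 of the 6 arrays 3 of 14 haematopoietic, 4 of 8 macrophage, 5 of 10 fibroblast, 2 of 7 epithelial and 3 of 5 endothelial markers were well above background. These were Cd79b, Cd3e, Cd4, Cd68, Csf1r, Itgam, Cd14, Col1a1, Col1a2, Pdgfra, Thy1, Fbln1, Krt5, Krt14, Pecam1, Kdr and Vwf. Ptprc, Adgre1, Lyz2, Dcn, Col3a1, Epcam, Krt8 and Cdh5 were among those on none. On all 3 D361E arrays 2 haematopoietic, 3 macrophage, 4 fibroblast, 0 epithelial and 3 endothelial markers were well above background. With the C-fragment these counts were 2, 4, 3, 0 and 3. Summed linear levels, in units of the array's 75th percentile, ran from 1.94 to 3.27 with D361E and from 2.89 to 3.5 with the C-fragment for macrophage markers, and from 10.7 to 13.2 against 9.69 to 10 for fibroblast markers. They were 1.1 to 1.31 against 1.3 to 1.34 for haematopoietic, 0.0697 to 0.0828 against 0.0726 to 0.0842 for epithelial and 1.09 to 1.86 against 1.74 to 1.96 for endothelial markers. Cd68, also a lysosomal gene of other cells, fell by 0.66 on the log2 scale (± 0.15, adjusted p = 0.011), and Pdgfra, undetected on the C-fragment arrays, was called at least 1.03-fold higher (adjusted p = 0.0413) but in no fit that left out an array. The part of these markers in the other results was not tested.

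Constitutive gene groups held few calls, where 5.51% of all genes tested were called higher and 4.41% lower. Ribosomal protein genes had 3 of 31 called lower and a median of -0.09, oxidative phosphorylation subunits 2 of 26 and -0.13, and proteasome subunits 1 of 27 and -0.04; no member of the 3 lists was called higher (limma), and 1, an oxidative phosphorylation gene, was higher at an unadjusted p under 0.05. The named calls (Rps7, Rps19, Rpl6, Cox5a, Sdhd and Psmd12) lay between -0.21 and -0.24, and with quantile normalization none of the 6 was called. Cholesterol synthesis genes had 3 of 23 called higher, Sqle, Stard4 and Tm7sf2, at 0.31, 0.29 and 0.25, each lost without D361E array 2 or C-fragment array 1, 2 or 3 (adjusted p up to 0.18). Fatty acid synthesis had 0 of 10 called (limma; 0 also at an unadjusted p under 0.05), with a median of -0.15. Lysosomal genes had 2 of 21 called higher, the calcium channel gene Mcoln1 (0.39 ± 0.09, adjusted p = 0.00803) and the glucosidase gene Gaa, and 1 lower, the protease gene Ctsb (-0.55 ± 0.14, adjusted p = 0.0204). The Gaa and Ctsb calls held only when D361E array 1 was the one left out.

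**Figure D5:**
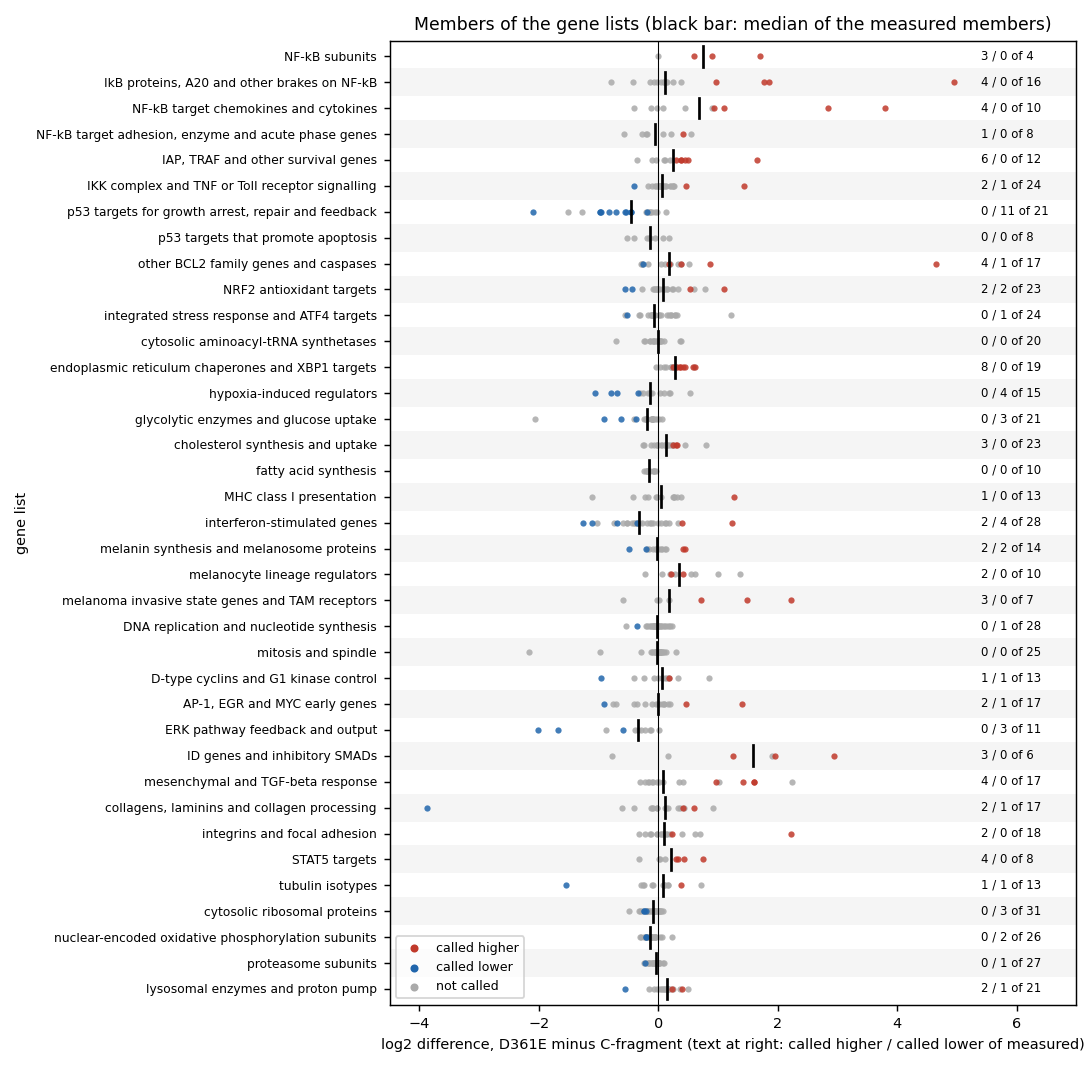
Log2 differences, D361E minus C-fragment (x axis), of the measured members of each gene list (rows): red points were called higher, blue lower, grey not called, black bars are list medians, and the text at right counts calls. ID genes have the highest median (1.58) and p53 arrest targets the lowest (-0.46), with 0 of 21 called higher.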

How the data were processed

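The 20 samples were hybridised to 1-colour Agilent mouse expression arrays, and the deposited values are scanner intensity per spot, which Agilent Feature Extraction 10.7.3.1 had background-corrected, per the file headers. The authors' series table holds the same processed intensity, with 0 values differing. Spots with an outlier mark (98 to 285 per array) were left out and spots of a probe averaged. Levels are log2 intensity minus each array's log2 75th percentile over non-control spots. A probe entered the fit when at least 50% of its spots were well above background on 3 or more of the 20 arrays, and the brightest probe stood for a gene. limma 3.58.1 in R 4.3.3 was fitted to all 20 arrays and 6 groups, with Benjamini-Hochberg adjustment over 18738 genes (23432 probes) and a threshold of 0.05; it was tested on simulated data. Of 39429 probes, 72.7% were given a symbol, by a unique match of their transcript identifier to RefSeq genes. The number of arrays limits the precision.

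Named genes were Rela, the 15 largest rises and falls among called genes with a symbol whose groups did not overlap and whose higher group was well above background on all 3 arrays, members of the NF-kB subunit, inhibitor, cytokine and inflammatory lists, and up to 3 called members of each other list per direction. The members and the 37 gene lists and 5 marker lists were chosen with earlier results of these data known. Alternatives covered scaling, background correction (normexp on median spot and background signals with an offset of 50), filters, probe choice, arrays fitted, slide and each array left out.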

Additional observations from a re-analysis of the deposited data

How the results depend on the processing

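Against 1859 calls as reported, of which 298 (189 higher, 109 lower) were also at least 2-fold, a fit without scaling called 824 (394 and 430; 798 of the 1859), one without a filter 1125 (661 and 464; 1094 of the 1859) of 32016 genes, and one without the N+C arrays 3105 (1749 and 1356; 1818 of the 1859). Scaling on probes above background on every array gave 543 lower. Leaving out 1 of the 6 arrays gave 1011 to 1681 in all, 589 to 1027 higher and 422 to 654 lower. Under 10 further settings the total stayed within 1.5 times, from 1544 (normexp) to 2289 (slide as a random block); with slide as a fixed block 44.8% were higher (1000 against 1233 lower). No called gene was called in the opposite direction under any setting run. The sign of the difference turned, without a call, for 12 of the 1859 when the probes of a gene were averaged. It turned for 1 with normexp. Some named genes, Tnfaip3 and Gas6 among them, did not pass the stricter filter on dim probes and were not tested there. Of 117 called genes named, 60 were called under every setting in which they were tested. The call was lost in at least 1 omission of an array for 41. The cause was not tested. List counts per setting were added after the data had been seen. No paired analysis was possible because sample titles give running numbers only, none shared between groups. Where a group was below background on all its arrays, its signal limits the fold to a bound.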
